A study of Mus musculus with 51 samples.

Results

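The comparison follows *Smad4* WT and *Smad4* KO mouse embryonic stem cells (mESCs) from day 1 to day 2 of mesoderm differentiation, and asks which of the gene expression steps taken by WT cells between these days were still made, missed or replaced in KO cells. It uses 4 of the 51 samples of the series, 1 RNA-seq sample for each genotype and day, chosen by genotype and day alone. Both genotypes carried the strain label 129S/SvEvxC57BL/6 and were differentiated as aggregates on fibronectin, without feeder cells, in medium with N2, B27 and 20 ng/ml Bmp4 renewed daily. KO cells came from a conditional line, in which loxP sites flank the first exon of *Smad4*, by transient Cre expression and expansion of single homozygous clones. WT cells carried the conditional alleles and the same strain label. F1G4 cells, a separate WT mESC line taken through the same protocol, gave the same step for scale, with 4 samples over both days. Each deposited column holds 1 FPKM value (fragments per kilobase of transcript, scaled to the fragments mapped) per gene for 24538 genes. How many cultures each column of the *Smad4* line averages is unclear, so no spread between replicates, no test and no depth are available, and all differences are descriptions of these columns.

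Smad4 is the common partner that receptor-activated Smads need in order to regulate their targets, both in the BMP branch (Smad1/5) and in the Nodal branch (Smad2/3). In the posterior epiblast of the embryo, Bmp4 switches on *Wnt3*, Wnt and Nodal signals reinforce each other, and the T-box factors Eomes and T then start the mesodermal programme while naive pluripotency genes are shut down. Epiblast cells that receive neither BMP nor Nodal signals tend to take a neural course.

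Day 1 and day 2 come from separate tables that were normalised separately, with WT and KO of a day in the same table. Day 2 values were therefore divided by the median ratio of day 2 to day 1 over genes above FPKM 1 on both days, which was 1.024 in WT and 1.023 in KO, and all day 2 levels below are given on this scale. A gene is said to have risen or fallen when its FPKM was above 1 on at least one day and its scaled log2 ratio of day 2 to day 1 was above 1 or below −1, that is beyond 2-fold. FPKM above 1 was found for 10678 to 10911 genes per column, with a column sum of 493992 to 516771 on day 1 and to 453655 to 456698 on day 2.

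*Smad4* itself was listed at FPKM 33.8 on day 1 and 38.3 on day 2 in WT, and at 39.4 and 45.7 in KO. It was thus not lower in the KO columns. The value covers the whole gene, of which the excised first exon is a part, so it does not check the genotype labels. *Id1*, a direct BMP target that encodes an inhibitor of bHLH factors, stood at FPKM 77.1 on day 1 in WT and at 2.14 in KO. The samples are labelled as cardiac mesoderm progenitors. The nascent mesoderm gene *T* reached FPKM 26.0 in WT on day 2, whereas *Gata4*, *Nkx2-5*, *Tbx5* and *Hand2* of the cardiac programme stayed at or below FPKM 1 in all 4 columns, and in KO on day 2 *T* was at 0.87.

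WT cells took 926 steps between the days. In WT, 306 of 11152 examined genes rose (2.74%) and 620 fell (5.56%). In KO, 181 of 11180 examined genes rose (1.62%) and 549 fell (4.91%). Falls therefore made up 67.0% of the WT steps and 75.2% of the KO steps. These splits depended on the scaling, since rescaling each column to TPM (every column brought to the same sum) moved the median of all genes up by 0.21 in WT and 0.16 in KO on the log2 scale and left 44.3% falls in WT and 60.5% in KO.

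KO cells made 60 of the 306 WT rises (19.6%) and 301 of the 620 WT falls (48.5%). In F1G4 cells 153 of the same WT rises (50%) and 207 of the WT falls (33.4%) were seen, where 7.31% of all examined genes rose and 4.02% fell. At the WT rises the median log2 ratio was 1.26 in WT, 0.60 in KO and 1.10 in F1G4, and at the WT falls it was −1.36, −1.05 and −0.63. KO cells moved in the WT direction, by any amount, at 245 of the WT rises and 563 of the WT falls. WT steps were chosen on the WT columns, which favours WT, so the steps of F1G4 cells give a view that no column of the *Smad4* line entered. Of 822 F1G4 rises, *Smad4* WT cells made 153 (18.6%) and KO cells 52 (6.33%), and of 452 F1G4 falls WT cells made 207 (45.8%) and KO cells 172 (38.1%). Among the 153 rises common to both WT lines KO cells made 28 (18.3%), and among the 207 common falls they made 139 (67.1%).

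**Figure D1:**
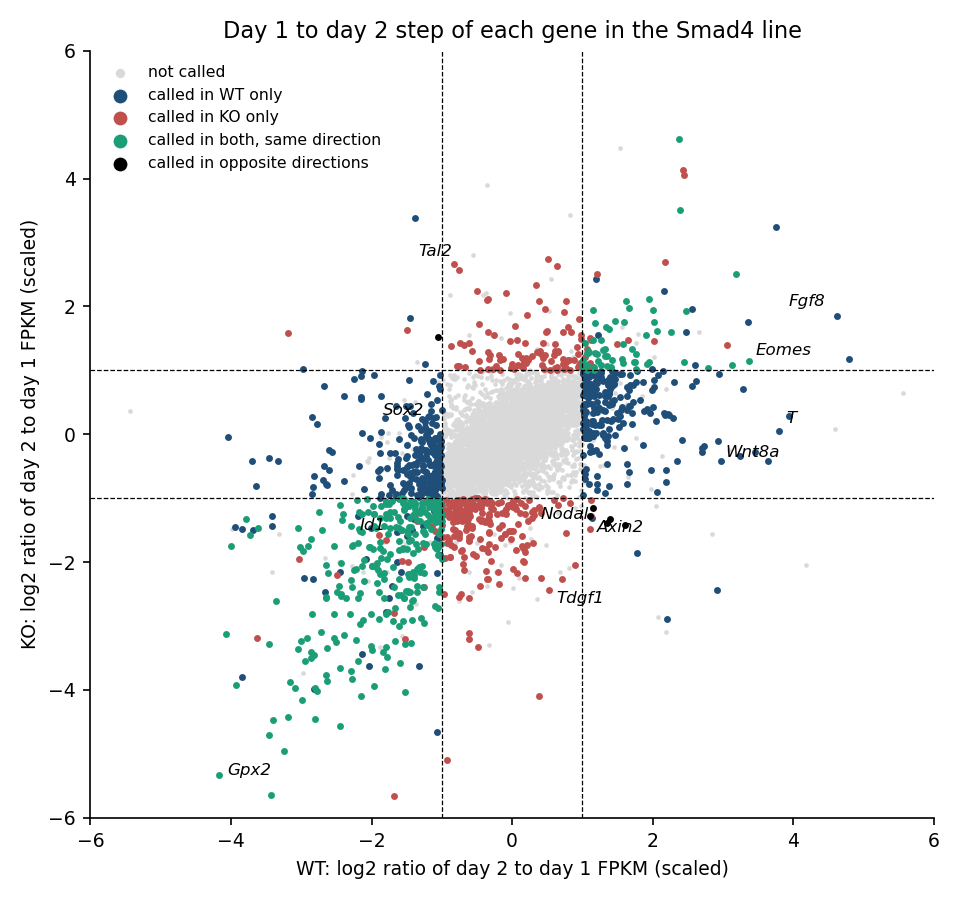
Each point is a gene, with the scaled log2 ratio of day 2 to day 1 in WT on the x axis and in KO on the y axis, and dashed lines at 1 and −1. Points beyond a line can lack a call where the FPKM was not above 1. The falls extend along the diagonal into the lower left corner, whereas *T* and *Wnt8a* lie far to the right near 0 in KO, and 4 genes lie outside the axes.

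The share of falls made by KO cells was higher for larger falls. KO cells made 35.1% of the 339 WT falls with a log2 ratio down to −1.5, 64.3% of the 126 falls between −1.5 and −2, and 65.2% of the 155 falls beyond −2. For rises the corresponding shares were 16.5% of 194, 27.3% of 55 and 22.8% of 57. Where both genotypes fell and had values above 0 on both days, the fall was larger in KO at 176 of 292 genes. Among the rises made by both, 28 of 59 were larger in KO.

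Missed steps were of 3 kinds. Of the 241 missed WT rises, 63 were at genes that stayed at or below FPKM 1 in KO on both days, 118 were at genes whose KO level on day 1 was already within 2-fold of the WT day 2 level or above it, and 60 lay in between. F1G4 cells made 43 of the 63 rises at or below FPKM 1 in KO, 38 of the 118 already at the WT level and 42 of the 60 in between. Of the 317 missed WT falls, 98 were at genes at or below FPKM 1 in KO, 111 were already near or below the WT day 2 level on day 1, and 108 lay in between. Many calls lie close to the line. In KO, 40 genes rose with a log2 ratio of up to 1.1 and 63 lay between 0.9 and 1. Among the WT rises, *Adgrl2* was just inside in KO at 1.01 and *Col4a2* just outside at 0.99.

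**Figure D2:**
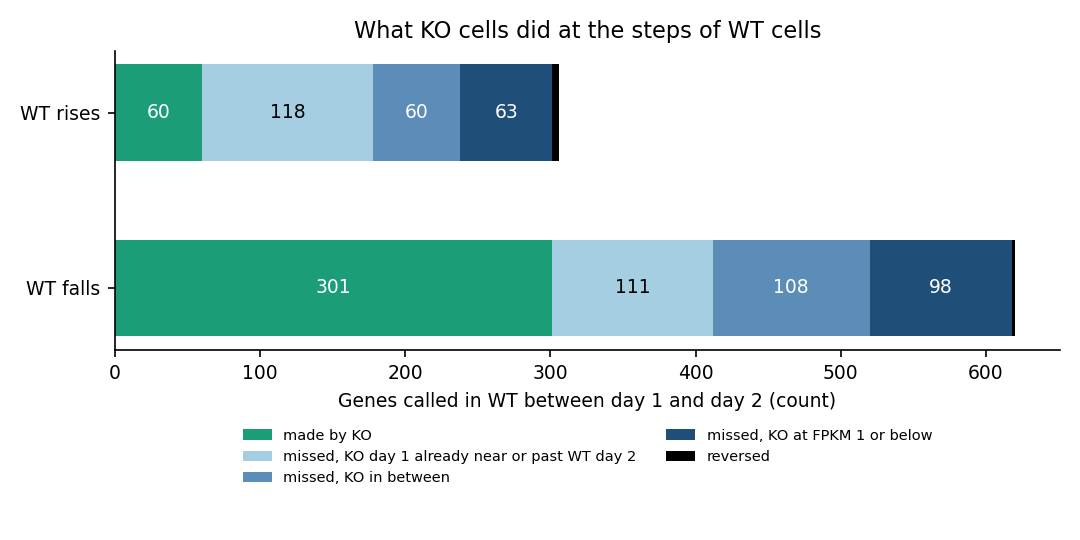
Bars count the genes that rose (top) or fell (bottom) in WT between day 1 and day 2, divided by what KO cells did. KO cells made 60 of 306 rises and 301 of 620 falls, and 118 of the missed rises were at genes already near or past the WT day 2 level in KO on day 1.

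The rises that KO cells missed included most nascent mesoderm regulators. Of 15 listed transcription factors 9 were examined. In WT 7 of them rose and 1 fell, in F1G4 6 rose, and in KO only *Eomes* rose. The shares of all examined genes that rose were 2.74% in WT, 7.31% in F1G4 and 1.62% in KO. The median log2 ratio over the list was 2.30 in WT, 2.40 in F1G4 and 0.07 in KO, against −0.01, 0.01 and −0.01 over all 11495 examined genes. With a pseudocount of 1 the list median was 1.15 in WT and 0.03 in KO. *T*, the T-box factor of the primitive streak and its mesoderm, went from FPKM 1.86 to 26.0 in WT (log2 3.80) and from 0.84 to 0.87 in KO (log2 0.05). In F1G4 it went from 0.78 to 44.1, so both WT lines were high on day 2 and KO was not. *Evx1*, a homeobox factor of the posterior streak, went from 0.90 to 4.15 in WT and from 0.07 to 0.01 in KO. *Sp5*, a zinc finger factor downstream of Wnt, went from 0.61 to 3.37 in WT and from 0.04 to 0.12 in KO. *Gsc* (0.11 to 1.11) and *Foxb1* (0.18 to 1.39) also rose in WT and stayed below 1 in KO. *Sp8* went from 1.80 to 5.19 in WT and from 1.05 to 2.00 in KO, a log2 ratio of 0.94 just under the line.

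*Eomes*, the T-box factor needed for cardiac mesoderm, was the one member of the list that rose in KO. It went from FPKM 2.35 to 24.2 in WT (log2 3.37), from 2.38 to 9.61 in F1G4 (log2 2.01), and from 0.77 to 1.69 in KO (log2 1.14). By the 2-fold rule KO cells made this step, but their day 2 level remained below the WT day 1 level. With 1 FPKM added to all values the KO log2 ratio was 0.61 and the step was no longer called.

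*T* and *Sp5* are shown with their start regions because CTTTGA, the core of the site bound by Tcf/Lef factors of the Wnt pathway, occurs in both. They were chosen after their letters were seen. The sequences run from 250 bases before to 50 after the gene's start in RefSeq (GRCm38.p6), both on the plus strand, at chr17:8434173-8434472 for *T* and chr2:70474673-70474972 for *Sp5*. Capitals mark CTTTGA or its reverse complement TCAAAG, with 1 match on the reverse strand in *T* and 2 on the forward strand in *Sp5*.
T: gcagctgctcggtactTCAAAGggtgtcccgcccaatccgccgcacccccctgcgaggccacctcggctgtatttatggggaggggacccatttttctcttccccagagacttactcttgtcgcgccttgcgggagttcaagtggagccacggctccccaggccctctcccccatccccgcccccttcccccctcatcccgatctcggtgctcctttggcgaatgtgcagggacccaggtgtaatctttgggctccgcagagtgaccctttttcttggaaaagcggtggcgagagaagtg
Sp5: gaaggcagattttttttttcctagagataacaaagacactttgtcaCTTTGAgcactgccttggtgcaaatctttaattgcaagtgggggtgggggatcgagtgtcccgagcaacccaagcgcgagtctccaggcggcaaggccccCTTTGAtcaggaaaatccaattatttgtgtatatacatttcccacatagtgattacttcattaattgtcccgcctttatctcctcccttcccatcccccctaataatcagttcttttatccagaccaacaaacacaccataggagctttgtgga
Both strands were searched. The motif was present in 16.0% of all 32851 promoters, in 13.4% of the 8982 examined genes with a promoter in the table, in 14.8% of 182 missed WT rises, in 16.3% of 43 WT rises made by KO and in 13.6% of 88 rises that occurred in KO without WT. The share among missed rises was thus near that of all promoters.

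Wnt ligands rose together in WT and in F1G4. Of 6 examined ligands 5 rose in WT and 6 in F1G4, and 1 rose in KO. Rises among all examined genes were 2.74% in WT, 7.31% in F1G4 and 1.62% in KO. The median log2 ratio was 1.29 in WT, 2.58 in F1G4 and 0.10 in KO. *Wnt8a*, a ligand of the posterior streak, went from FPKM 4.85 to 36.9 in WT (log2 2.93) and from 0.44 to 0.41 in KO (log2 −0.11). *Wnt5b* went from 2.53 to 6.44 in WT and from 1.20 to 0.86 in KO. *Wnt6* and *Wnt7b* rose in WT, to 3.02 and 2.15, and stayed below 1 in KO. *Wnt3*, the ligand that starts the streak, was not called in WT, where it was already at 7.83 on day 1 and reached 13.4, and it was at 1.22 and 1.23 in KO. *Wnt4* rose in all 3 cell populations, and its KO level went from 0.36 to 1.21. With a pseudocount of 1, *Wnt4* was under the line in WT (0.76) and KO (0.70) and *Wnt7b* in WT (0.77), which left 3 rises in WT and 0 in KO.

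Downstream of Wnt, 3 of 9 examined target genes rose in WT and none in KO, against 2.74% and 1.62% of all examined genes. *Axin2*, a negative regulator of the pathway and a general reporter of its activity, moved in opposite directions. It went from FPKM 4.41 to 9.49 in WT (log2 1.10), from 4.19 to 11.1 in F1G4 (log2 1.40), and from 2.24 to 0.92 in KO (log2 −1.28). *Nkd1*, another feedback inhibitor, went from 0.67 to 1.38 in WT and from 0.86 to 0.59 in KO. *Ccnd1* and *Tcf7* moved below the line in both genotypes, with *Ccnd1* going from 43.3 to 78.4 in WT and from 44.2 to 75.5 in KO. The list was thus not uniform. With a pseudocount of 1 only 1 target rose in WT, as *Axin2* (0.95) and *Nkd1* (0.51) were then under the line. *Nkd1* was also under it with a pseudocount of 0.1 (0.95) and with the trend over transcript length removed (0.96), which left 2 WT rises. With columns rescaled to TPM there were 4, as *Ccnd1* (1.07) then passed it.

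*Fgf8*, which mesoderm cells need to leave the streak, went from FPKM 0.78 to 19.4 in WT (log2 4.63), from 0.15 to 13.8 in F1G4 and from 0.04 to 0.15 in KO. The KO values are both far below 1, so its KO log2 ratio of 1.86 was not called. *Apln*, a peptide ligand of the mesodermal receptor Aplnr, went from 0.20 to 5.62 in WT and from 0.28 to 0.63 in KO. *Hand1*, a bHLH factor of lateral mesoderm, was not called in WT at 1.94 and 3.42, while KO had 0.51 and 0.12. In these bulk samples, fewer cells of a type and less RNA per cell cannot be told apart.

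**Figure D3:**
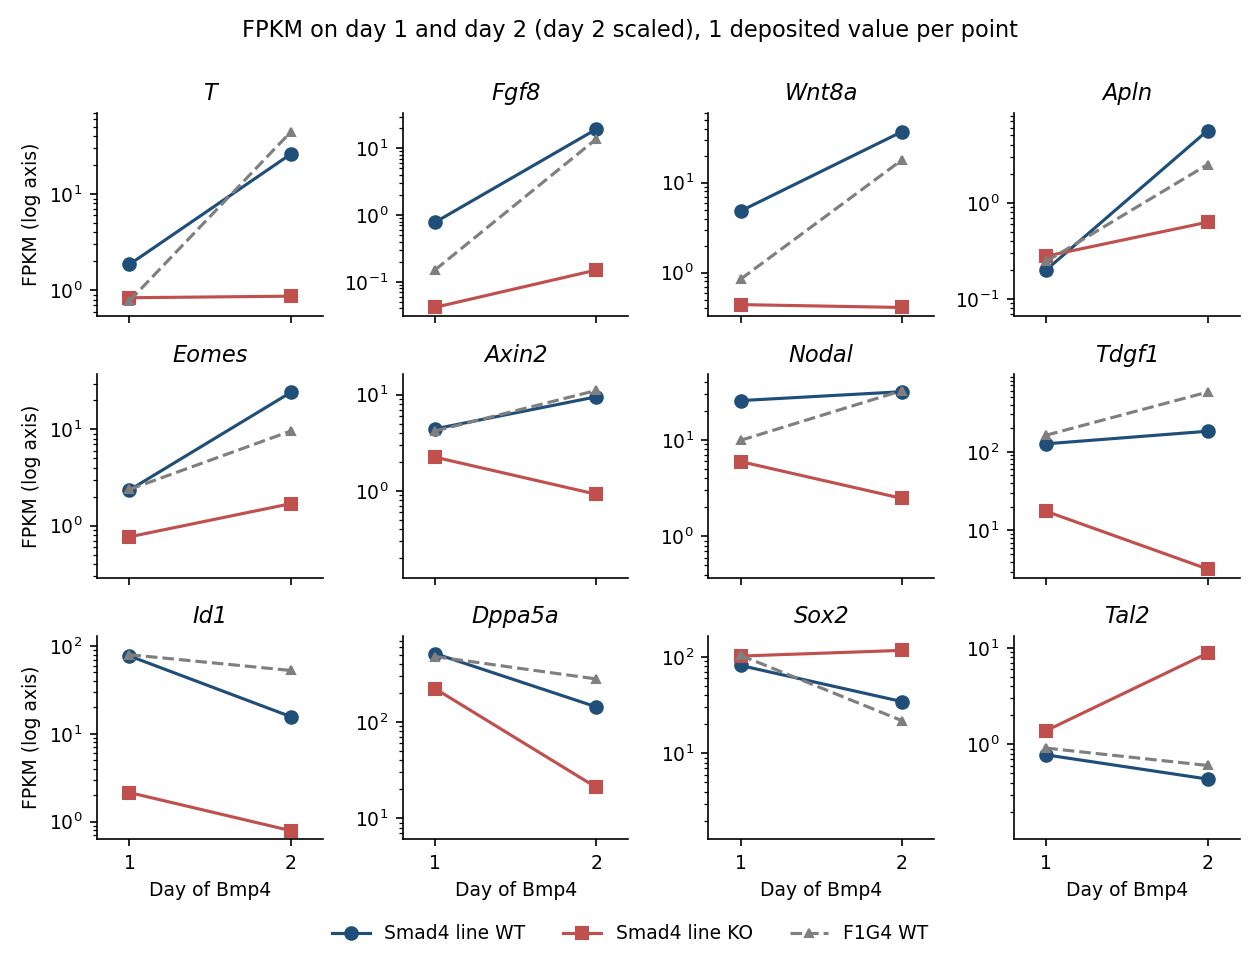
FPKM on a log axis on day 1 and day 2, with the day 2 value scaled, for 12 genes in WT and KO cells of the *Smad4* line and in F1G4 WT cells. Each point is 1 deposited value without error. *T*, *Fgf8*, *Wnt8a* and *Apln* stay below 1 in KO, *Nodal* and *Tdgf1* go down in KO only, *Dppa5a* goes down in all 3, and *Tal2* goes up in KO only.

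In the Nodal pathway, genes fell in KO that did not fall in WT. None of 16 examined members fell in WT and 3 fell in KO, against 5.56% and 4.91% of all examined genes. *Tdgf1*, which encodes the Nodal co-receptor Cripto, had the largest fall of all genes that fell in KO without WT by the naming rule. It went from FPKM 126 to 183 in WT (log2 0.53), from 163 to 575 in F1G4 and from 17.5 to 3.23 in KO (log2 −2.43). *Nodal* went from 25.6 to 31.7 in WT and from 5.96 to 2.47 in KO (log2 −1.27). *Lefty2*, an extracellular Nodal inhibitor, went from 23.7 to 18.8 in WT and from 3.50 to 1.21 in KO (log2 −1.53), and *Lefty1* went from 6.29 to 11.8 in WT and from 1.76 to 1.17 in KO. All these genes were thus lower in KO on day 1 already and further apart on day 2. The receptors and effectors did not pass the line in either genotype. The effector gene *Smad3* came nearest, from 3.56 to 6.75 in WT (log2 0.92, and 1.14 with columns rescaled to TPM) and from 5.33 to 7.42 in KO. *Acvr2a* was at 5.97 and 6.19 in WT and at 6.46 and 6.49 in KO, *Foxh1* at 36.8 and 33.0 in WT and at 35.4 and 38.0 in KO, and *Smad2* at 7.78 and 9.78 in WT and at 8.22 and 8.44 in KO. The list median was 0.32 in WT and −0.11 in KO, where it was 0.05 with columns rescaled to TPM.

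*Id1* to *Id4*, which are BMP targets, were lower in KO than in WT on both days. Of 10 examined BMP targets 5 fell in WT, 2 fell in KO and none rose in either. Falls among all examined genes were 5.56% in WT and 4.91% in KO. *Id1* went from FPKM 77.1 to 15.7 in WT (log2 −2.30) and from 2.14 to 0.79 in KO (log2 −1.44). *Id3* went from 109 to 24.8 in WT and from 19.1 to 8.05 in KO. *Id2* went from 73.2 to 35.1 in WT and from 14.8 to 11.2 in KO, and *Id4* from 7.22 to 2.74 in WT and from 1.71 to 1.65 in KO. With columns rescaled to TPM 3 targets fell in WT and 2 in KO, since *Id2* (−0.85) and *Msx1* (−0.81) were then under the line in WT, and *Msx1* was under it with no scaling as well. The KO levels of *Id2* and *Id4* on day 1 were already below the WT levels of day 2. In F1G4 cells none of the targets fell by 2-fold, 2 rose, and *Id1* was at 79.7 and 52.7. *Id1* to *Id4* also went down there, with log2 ratios of −0.60, −0.39, −0.36 and −0.57, less than in *Smad4* WT cells.

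Naive pluripotency genes, which keep ES cells in the ground state, fell in both genotypes. Of 10 examined naive genes 8 fell in WT and all 8 of them fell in KO, against 5.56% and 4.91% of all examined genes. *Tfcp2l1* fell in KO as well and was just short of the line in WT at a log2 ratio of −0.98. The list median was −1.81 in WT, −2.38 in KO and −1.01 in F1G4. With a pseudocount of 1 it was −1.22 in WT and −1.41 in KO, so the 2 genotypes were closer. *Dppa5a*, an RNA-binding protein gene of pluripotent cells, went from FPKM 514 to 144 in WT and from 222 to 20.9 in KO. *Zfp42* (Rex1) went from 47.6 to 13.7 in WT and from 36.8 to 5.26 in KO, and *Esrrb*, an orphan nuclear receptor of the naive network, from 2.90 to 1.08 and from 1.64 to 0.27. *Klf2* and *Klf5*, Krüppel-like factors of the same network, fell in both, with *Klf2* going from 3.85 to 0.55 in WT and from 1.71 to 0.08 in KO. The KO step was the lower one at 9 of the 10 genes. *Nanog* was the exception to the falls. It went from 65.2 to 118 in WT and from 18.1 to 26.2 in KO, both below the 2-fold line, and from 16.1 to 122 in F1G4.

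Most germ cell genes and a minority of the Atf4 targets fell as well. Of 9 examined germ cell genes 6 fell in both WT and KO, where 5.56% and 4.91% of all examined genes fell. *Dppa3* (Stella) went from FPKM 194 to 64.2 in WT and from 116 to 9.65 in KO, *Dppa2* from 34.9 to 4.99 and from 22.5 to 1.44, and *Prdm1*, the repressor that starts germ cell fate, from 3.11 to 0.70 and from 2.77 to 0.16. Of 12 targets of Atf4, the factor of the amino acid and stress response, 4 fell in WT and the same 4 fell in KO along with *Atf4*. *Trib3* went from 25.8 to 7.60 in WT and from 17.5 to 2.55 in KO, and *Atf4* from 363 to 195 in WT (log2 −0.90) and from 326 to 133 in KO (log2 −1.29). With columns rescaled to TPM, 2 of the 4 WT falls, *Chac1* at −0.89 and *Slc7a11* at −0.88, were under the line. None of the 12 fell in F1G4.

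The largest shared falls by the naming rule were *Gpx2*, a glutathione peroxidase, *Rpl10l*, *Calml4*, *Fam25c* and *Mylpf*, a myosin light chain. *Gpx2* went from FPKM 11.7 to 0.65 in WT (log2 −4.17) and from 9.65 to 0.24 in KO (log2 −5.34). *Calml4* went from 24.6 to 2.29 and from 23.5 to 0.47. All 5 also fell in F1G4. *Rpl10l* is a near copy of the ribosomal protein gene *Rpl10*, so its reads could be shared with it and its level is uncertain.

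Falls were concentrated in short transcripts in both genotypes. Transcript length was available for 97.4% of the examined genes. In the shortest of 10 equal groups of genes the median log2 ratio was −0.33 in WT and −0.20 in KO, and in the longest 0.26 and 0.15, while F1G4 had 0.04 and −0.08. The shortest group held 164 WT falls and 82 of the shared falls, and the longest 18 and 9. With the length trend removed, KO made 49.1% of 532 WT falls and 17.5% of 303 WT rises. The part of the length trend in the shared falls was not tested further.

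**Figure D4:**
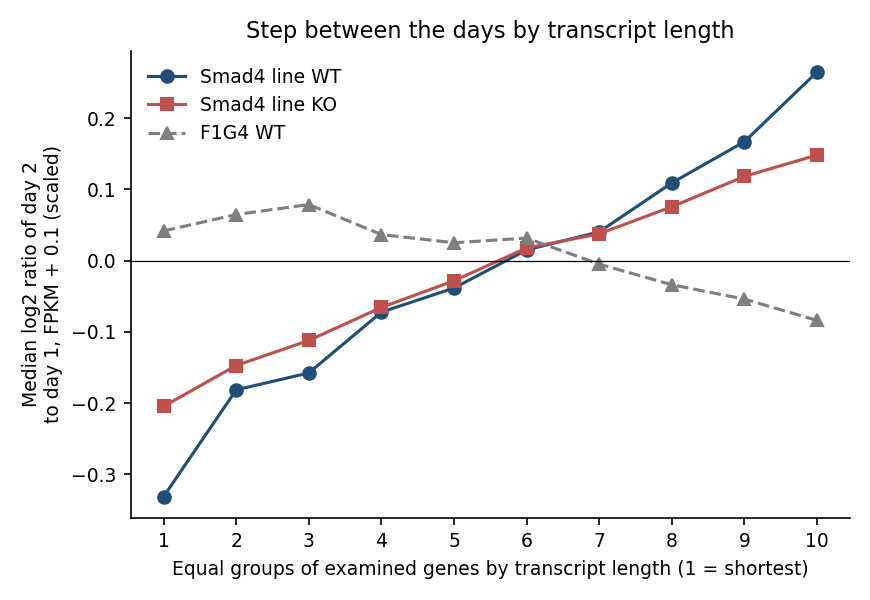
Median log2 ratio of day 2 to day 1, with 0.1 added to each FPKM, over 10 equal groups of the examined genes ordered by transcript length. WT rises from −0.33 to 0.26 and KO from −0.20 to 0.15 between the shortest and the longest group, and F1G4 goes from 0.04 to −0.08.

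WT falls that KO cells missed included genes of the epiblast and neural state. *Sox2*, a core pluripotency factor that stays on in neural progenitors, went from FPKM 81.5 to 34.4 in WT (log2 −1.25), from 104 to 21.8 in F1G4 (log2 −2.25) and from 102 to 117 in KO (log2 0.20). *Foxd3*, a forkhead factor of the epiblast, went from 4.21 to 2.10 in WT, barely past the line, and from 6.19 to 8.06 in KO. Its WT call was lost with no scaling (−0.97), with TPM (−0.79), and with a pseudocount of 0.1 (−0.97) or 1 (−0.75). With the length trend removed it was not called either (−0.91). *Pax6*, a paired box factor of neural progenitors, went from 1.02 to 0.37 in WT and from 5.65 to 10.2 in KO, a log2 ratio of 0.85 that passed the line, at 1.01, only with columns rescaled to TPM. *Pou5f1* (Oct4) moved little, from 824 to 676 in WT and from 697 to 628 in KO. The largest missed falls by the naming rule were *AF357425*, *Uchl1*, *Gstm2*, *Usp28* and *Gstt2*, and at these KO moved in the same direction by less than 2-fold. *Uchl1*, a ubiquitin hydrolase, went from 44.9 to 16.6 in WT and from 42.7 to 22.7 in KO.

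The steps that KO cells took without WT were 121 rises and 248 falls. At 47 of the 121 rises, WT cells had on day 1 already been within 2-fold of the KO day 2 level or above it, and WT moved in the same direction by some amount at 81. KO ended day 2 more than 2-fold above WT at 53 of them. At the falls, WT had been near or below the KO day 2 level on day 1 at 115 of 248, WT moved in the same direction at 193, and KO ended more than 2-fold below WT at 63. F1G4 cells made 24 of these rises and 33 of these falls, and were called the opposite way at 7 and 28. Over all examined genes 7.31% rose and 4.02% fell in F1G4. The lack of a WT call was part of how these genes were chosen, so it is not a result.

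Among the rises in KO were neural genes. Of 9 examined neural and anterior ectoderm genes 4 rose and none fell in KO, whereas 2 rose and 2 fell in WT. Among all examined genes 1.62% rose and 4.91% fell in KO, and 2.74% rose and 5.56% fell in WT. The list median was 0.84 in KO, −0.32 in WT and −0.67 in F1G4. *Tal2*, a bHLH factor of the developing midbrain, went from FPKM 1.39 to 8.86 in KO (log2 2.67) and from 0.78 to 0.44 in WT. *Sox1*, an early neuroectoderm factor, went from 1.62 to 3.50 in KO and from 0.14 to 0.30 in WT, where it stayed below 1. *Irx3*, a homeobox factor of the neural plate, went from 1.43 to 3.23 in KO and from 2.43 to 1.94 in WT. *Nes*, which encodes the progenitor filament nestin, rose in both, from 23.1 to 56.8 in KO and from 13.8 to 29.3 in WT. With a pseudocount of 1, *Sox1* (0.78) and *Irx3* (0.80) were under the line in KO, which left 2 rises. The other 11 listed genes, *Six3*, *Hesx1*, *Lhx2* and *Neurog2* among them, were at or below 1 on both days in both genotypes.

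Some genes that rose in WT were within 2-fold of the WT day 2 level, or above it, in KO on day 1. *Fgf5*, the ligand that marks the formative epiblast, went from FPKM 3.40 to 23.4 in WT (log2 2.78) and from 17.9 to 36.8 in KO (log2 1.04). *Zic2*, a zinc finger factor of epiblast and neural plate, went from 9.63 to 20.2 in WT and from 28.0 to 47.4 in KO. *Sox3* went from 0.80 to 2.08 in WT and from 3.55 to 4.89 in KO. All 3 were thus higher in KO than in WT on both days. In F1G4 none of the 3 was called, and all 3 were above their *Smad4* WT levels on day 1. There *Zic2* was at 18.7 and 15.0, *Sox3* at 1.37 and 1.89, and *Fgf5* at 8.39 and 11.6. The F1G4 day 1 levels of *Zic2* and *Sox3* were also within 2-fold of the *Smad4* WT day 2 level, so this state was not particular to KO for them.

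The 5 largest KO rises without WT by the naming rule were *Hopx*, *Slc2a3*, *Pgm2*, *Mme* and *Cgnl1*. *Hopx*, a homeodomain protein without DNA binding, went from FPKM 2.73 to 10.6 in KO (log2 1.95) and from 2.84 to 3.94 in WT. *Slc2a3*, a glucose transporter, went from 107 to 299 in KO and from 167 to 330 in WT, where a log2 ratio of 0.98 lay just under the line, and it rose in F1G4. *Fgfr2*, an FGF receptor, went from 7.89 to 16.0 in KO and from 7.64 to 6.05 in WT. In F1G4, *Pgm2* and *Mme* rose too, with log2 ratios of 1.29 and 2.58, *Cgnl1* fell and *Hopx* was not called. The largest KO falls beside *Tdgf1* were *Sgk1*, *Ifitm3*, *Slc7a7* and *Ass1*. *Sgk1* went from 26.6 to 5.13 in KO and from 35.2 to 25.6 in WT, and it fell in F1G4 (log2 −2.09), where the other 3 were not called. *Ifitm3*, an interferon-inducible membrane protein also found in germ cell precursors, went from 33.1 to 8.73 in KO and from 54.0 to 33.5 in WT. *Ass1*, an enzyme of arginine synthesis, went from 13.1 to 4.52 in KO and from 16.9 to 28.6 in WT.

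Among the rises that KO cells made, the 5 largest in WT by the naming rule were *Eomes*, *Fgf5*, *Efemp1*, *Rbmx* and *Lars2*. *Efemp1*, an extracellular matrix protein, went from FPKM 2.02 to 11.2 in WT, from 0.97 to 3.67 in KO and from 0.94 to 14.1 in F1G4. *Lars2*, the mitochondrial leucyl-tRNA synthetase, went from 13.5 to 52.2 in WT and from 6.58 to 28.5 in KO, but from 5.37 to 6.86 in F1G4. *Rbmx*, an RNA-binding protein, likewise stayed below the line in F1G4. The 5 largest missed rises were *Amd1*, *Fgf8*, *T*, *Akr1b3* and *Wnt8a*. *Amd1* was listed at 0.01 in WT on day 1 and at 16.5 on day 2, while KO had 7.29 and 11.7, and it has a near copy with which reads can be shared, so its WT step is uncertain.

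Markers of other cell types differed in level. Of 9 definitive endoderm genes only *Foxa3* was examined and it did not pass the line, and none of 12 *Hox* genes was above 1 in WT or KO. Of 13 fibroblast markers 6 were examined, *Col1a1*, *Col1a2*, *Col3a1*, *Lum* and *Postn* were at or below 1 throughout, and *Dcn* went from 0.67 to 1.98 in KO and from 0.28 to 0 in WT. *Tagln*, a smooth muscle and fibroblast gene, was at 170 and 150.0 in WT and at 155 and 148 in KO, and *Acta2* and *Mmp2* lay between 4.12 and 9.94. The fibroblast list summed to FPKM 190 and 169 in WT and to 175 and 171 in KO as deposited. Of 9 examined trophoblast and amnion genes, *Cdx2*, *Ascl2* and *Gcm1* fell and *Wnt6* rose in WT, and none was called in KO, where *Gcm1* was at 0.41 and 0.11. For all examined genes the WT shares were 5.56% falls and 2.74% rises. With a pseudocount of 1, *Cdx2* (−0.54), *Ascl2* (−0.98) and *Gcm1* (−0.56) were under the line in WT, which left 0 falls. *Krt8* and *Krt18*, keratin genes of that list, were at 91.4 to 259 over the 4 columns. None of the 12 reference genes passed the line in either genotype, although *Gusb* in KO, at 0.97, passed it with no scaling, with columns rescaled to TPM (1.12) and with the length trend removed (1.03).

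**Figure D5:**
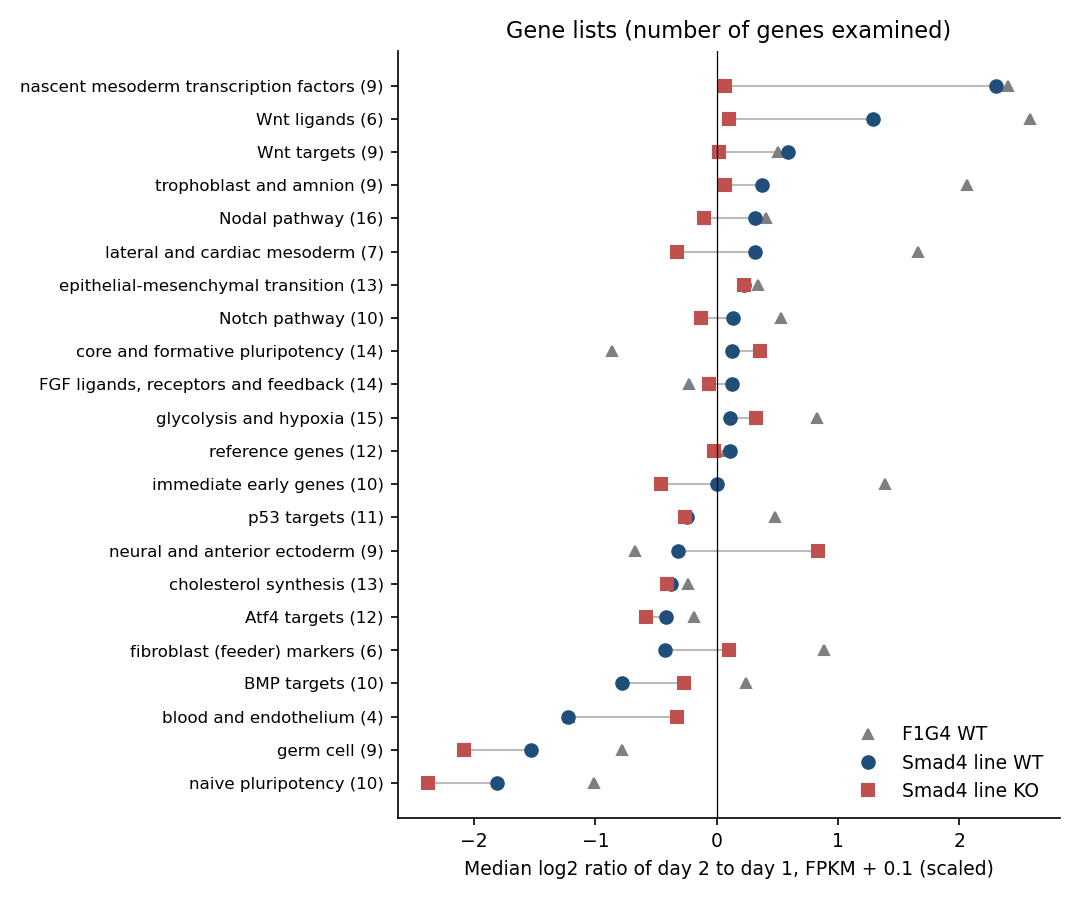
Median log2 ratio of day 2 to day 1, with 0.1 added to each FPKM, for each gene list with at least 4 examined genes (number in brackets) in WT, KO and F1G4 cells. The nascent mesoderm list lies at 2.30 in WT and 0.07 in KO, the neural list at −0.32 and 0.84, and the naive pluripotency list at −1.81 and −2.38.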

How the data were processed

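RNA-seq of *Smad4* WT and KO cells from day 1 and day 2 was analysed, 1 sample per genotype and day, with F1G4 WT cells of the same days for scale. FPKM values were deposited, made by the authors with Cuffdiff 2.2.1 on the refSeq annotation, after trimming with cutadapt 2.9 and alignment with HISAT2 2.1.0 to mm10, from strand-specific total RNA libraries. Read counts were not used here, so depth and counting precision are unknown. The other comparisons of KO and WT lines were not used, and some genes are not reported here.

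Each day 2 column was divided by its median ratio to day 1 over genes above FPKM 1 on both days. Genes above FPKM 1 on at least one day were examined, and called beyond a log2 ratio of 1 or −1 without a pseudocount. List medians used a pseudocount of 0.1. A WT step was made when KO was called in the same direction, reversed when called in the opposite one, and missed otherwise. Without replicates no test was run.

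Named genes are, per class, the 5 with the largest log2 ratio among those with FPKM of at least 10 on the higher day and above 0 on both, leaving out short RNAs and predicted genes, together with *Smad4* and members of 24 gene lists. *Adgrl2* and *Col4a2* were chosen after their values were seen. The members and lists were chosen with earlier results of these data known. Lengths, positions and promoters were taken from RefSeq (GRCm38.p6), the build also called mm10. Transcript length was the median over the transcripts of a gene.

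Alternatives were no scaling, TPM, pseudocounts of 0.1 and 1, no FPKM minimum or one of 5, a log2 limit of 1.5, removal of short RNA genes and restriction to WT steps shared with F1G4. Removal of the length trend, by subtracting the median log2 ratio of 20 length groups, was added after seeing the data. The step calls were tested on simulated data, with steps well beyond 2-fold put into genes well above the FPKM minimum. Calls near the 2-fold line or near FPKM 1 were not covered by it. The software was Python 3.11.15, numpy 2.4.6, pandas 2.3.3 and matplotlib 3.10.9.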

Additional observations from a re-analysis of the deposited data

Results flagged for a closer look

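In all, 7 genes were called in opposite directions in WT and KO. With 1 column per genotype and day, the difference was not tested. *Axin2* rose in WT with a log2 ratio of 1.10 and fell in KO with −1.28. *Pxdc1* rose in WT (1.15) from FPKM 1.04 to 2.31 and fell in KO from 2.06 to 0.92, and like *Axin2* it rose in F1G4. *Dynlt1f* rose in WT (1.35) and fell in KO and in F1G4, and *Efcab10* (1.61) and *Rpusd1* (1.39) rose in WT and fell in KO without a call in F1G4. *Prss35* fell in WT (−1.05) and rose in KO, and *0610040B10Rik* fell in WT (−1.05) from 1.83 to 0.88 and rose in KO, where it was listed at 0 on day 1. None of them reached FPKM 10 in any of the 4 columns.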

How the results depend on the processing

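No paired analysis was possible because each genotype and day has 1 column and no test was run. The WT counts of rises and falls, the KO counts of rises and falls, the WT rises and falls made by KO, the reversed steps, and the KO rises and falls without WT are given here in this order. They were 306, 620, 181, 549, 60, 301, 7, 121 and 248 as reported. With no FPKM minimum they were 1966, 2309, 1730, 2253, 586, 988, 672, 1144 and 1265. With a minimum of 5 they were 114, 234, 58, 187, 21, 112, 0, 37 and 75. With a log2 limit of 1.5 they were 112, 281, 58, 282, 14, 136, 0, 44 and 146. With a pseudocount of 1 they were 123, 289, 59, 265, 16, 146, 0, 43 and 119. Rescaling to TPM gave 538 WT rises, 283 KO rises and 105 rises made by KO. Restricting to WT steps shared with F1G4 gave 153 WT rises, 207 WT falls, 28 rises and 139 falls made by KO, and 2 reversed steps. Over all alternatives applied to the whole set of WT steps, KO made 12.5% to 29.8% of the WT rises and 42.8% to 50.9% of the WT falls, and F1G4 38.0% to 56.9% and 31.6% to 39.7%. Among 249 genes of the lists and the naming rule, 2376 of 2480 recomputed calls were as reported, 104 changed and none reversed direction. Calls lost under a pseudocount of 1 included *Axin2* in both genotypes (0.95 and −0.75), *Sox1* in KO (0.78) and *Pax6* in WT (−0.56), and genes near the line such as *Zic2* in WT (0.997) and *Fgfr2* in KO (0.93). Depth is unknown, so how far counting error reaches at FPKM near 1 cannot be given.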

Other observations

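Some lists differed between the WT lines as well as between the genotypes. Of 10 examined immediate early genes 8 lay lower in their KO step than in their WT step. In KO 3 fell, *Junb*, *Egr1* and *Atf3*, while none moved by 2-fold in WT. Among all examined genes 4.91% fell in KO, and 7.31% rose in F1G4. *Atf3*, a stress-induced factor, went from FPKM 7.67 to 3.22 in KO and from 7.16 to 8.15 in WT. In F1G4 cells 10 immediate early genes rose, from the 13 listed, and the list median was 1.39 there against 0.00 in WT and −0.46 in KO. Of the keratins of simple epithelia, *Krt7*, *Krt8*, *Krt18* and *Krt19* rose in F1G4 and none was called in WT or KO. *Krt8* went from 37.6 to 235 in F1G4, from 99.3 to 187 in WT and from 91.4 to 117 in KO, *Krt18* had log2 ratios of 0.80 in WT and 0.32 in KO, and *Krt7* 0.38 and −0.85. *Krt19* had 0.61 and 0.86. With columns rescaled to TPM, *Krt8* (1.13) and *Krt18* (1.02) in WT and *Krt19* (1.01) in KO passed the line.

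Of 10 examined Notch pathway genes, the ligand gene *Dll1* fell in both genotypes, from 1.58 to 0.42 in WT and from 3.36 to 0.77 in KO, *Dll3* fell in KO from 4.14 to 1.40, and the target gene *Hey1* fell in WT from 3.03 to 0.83 but was at 1.90 and 2.86 in KO. Of 15 glycolysis and hypoxia genes only *Slc2a3* in KO passed the line, and *Slc2a1* was at 78.9 and 98.5 in WT and at 192 and 313 in KO. Of 13 cholesterol synthesis genes only *Fdps* passed it, from 669 to 308 in WT and from 554 to 266 in KO. Among 74 examined short RNA genes 33 fell in WT, 21 fell in KO and 16 fell in both. Over all examined genes 5.56% fell in WT and 4.91% in KO. Their median log2 ratio was −0.93 in WT, −0.52 in KO and 0 in F1G4. The part of the length trend in these falls was not tested.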
